A study of Mus musculus with 7 samples.

Results

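The genes described here encode the enzymes of glycolysis, the carriers that bring hexoses into a cell and lactate out of it, the proteins that pass pyruvate into mitochondria, and the regulator hypoxia-inducible factor 1α. They were 34 mouse genes listed by symbol for these roles, and they occupied 35 of the 55335 rows of the count table, because Aldoa stood on 2 rows. RNA had been measured in type 2 innate lymphoid cells (ILC2s), tissue lymphocytes without antigen receptors that make type 2 cytokines, sorted from mouse hearts as CD45+ Lineage- ST2+ cells. The 3 naive libraries came from hearts that had not been transplanted, and the 4 allograft libraries came from Balb/C hearts that had been placed in C57BL/6 (B6) recipients and were in acute rejection at day 7. Each library pooled 4 to 7 hearts, so that the replicates were pools and not animals. The labels left genotype and cell line blank, and gave no sex, age or batch and no strain for the naive hearts. They also did not say whether the sorted allograft cells were of donor or recipient origin. The design sets the RNA of graft-infiltrating ILC2s against that of ILC2s from naive hearts.

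In glycolysis, glucose enters through facilitative transporters of the Slc2a (GLUT) family, is trapped by hexokinase, committed by phosphofructokinase, split by aldolase and oxidised to pyruvate. Pyruvate is either reduced to lactate by lactate dehydrogenase and exported through monocarboxylate transporters, or carried into mitochondria and oxidised by the pyruvate dehydrogenase complex, which pyruvate dehydrogenase kinases switch off. Most steps have isoforms encoded by separate genes whose proportions differ between tissues, and activated lymphocytes are known for a high glycolytic flux.

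The libraries held 29107326 to 53044907 counts. Values below are normalised CPM, the deposited count scaled to a common library total (cpm in edgeR) after edgeR's TMM scaling. A count of 0 allows up to 3 counts, or 0.0566 to 0.103 CPM of the deposited total. One library, naive replicate 2, stood apart. The 12 ILC2 markers summed to 1627 CPM there and to 10439 to 14826 CPM in the other 6 libraries, and Il1rl1, which encodes ST2, stood at 9.57 CPM there. The 15 kidney tubule markers, all of which were detected in naive 2, summed to 16391 CPM in it, against 66.1 CPM in naive 1, 333 CPM in naive 3 and 77.4 to 119 CPM in the allografts. Mitochondrially encoded genes took 26.5% of the counts of naive 2 and 2.04% to 3.11% elsewhere. Lung epithelium markers summed to 659 CPM in naive 3 and 222 to 617 CPM in the allografts, and at most to 0.264 CPM in naive 1 and 2. Erythroid and endothelial marker sums were also highest in naive 2, at 4234 and 805 CPM, against at most 765 and 43.8 CPM elsewhere. The sums of 2 lists were higher in every allograft than in any naive library. The 8 T cell markers summed to 76.1, 12.2 and 166 CPM in naive 1 to 3, with 3 to 5 of the 8 at 0, and to 177 to 218 CPM in the allografts, with 0 to 5 at 0. The 15 cardiomyocyte markers summed to 42.1 to 91.2 CPM in naive libraries, with 8 to 13 at 0, and to 110 to 131 CPM in the allografts, with 9 to 12 at 0. In the allografts Cd3g made up most of the T cell sum, at 166 to 209 CPM, while Cd3e reached at most 1.17 CPM. Actn2 made up most of the cardiomyocyte sum there, at 79.8 to 104 CPM, and stood at 87.6 CPM in naive 1. Myh6, Tnnt2, Myl2, Ryr2 and Mb were at 0 in every allograft. The part of these other transcripts in the results on glycolytic genes was not tested. Where a fitted log2 fold change of a single gene is given, it is given with and without naive 2, or without it as a fold above the floor. In pooled libraries, fewer cells of a type and less RNA per cell cannot be told apart.

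In the comparison of allograft with naive libraries, Slc2a6, a hexose transporter, was detected in every allograft and in no naive library. Pdha1, a subunit of pyruvate dehydrogenase, was lower in each allograft library than in any naive one. Tpi1, Pgk1, Pgam1 and Ldha had similar values in the 4 allografts, and their naive values lay on both sides of them. Of the member rows, 33 of the 35 passed the filter on low counts. Hk3 and the second Aldoa row did not. None of the 33 was called at an adjusted p of 0.05 by edgeR's quasi-likelihood test, in which 0.0294% of the 17015 genes tested were called higher and 0.00588% lower. At an unadjusted p of 0.05, 1 member was higher (Slc2a6) and 5 were lower (Slc2a1, Ldhb, Pdha1, Mpc1 and Mpc2), beside 6.41% of all genes higher and 3.86% lower. DESeq2 called 1 member higher, Slc2a6, and 1 lower, Pdha1, beside 3.72% and 2.23% of all genes. It gave no p-value for Pfkfb3, Aldoc, Ldhb and Mpc2, which were therefore not tested by it. Without naive 2, edgeR called Slc2a6 and Aldoc higher and none lower, beside 3% and 0.0998% of all genes. The median log2 fold change (allograft over naive) was -0.18 over the members and -0.01 over all genes. Without naive 2 these medians were 0.14 and 0.23.

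**Figure D1:**
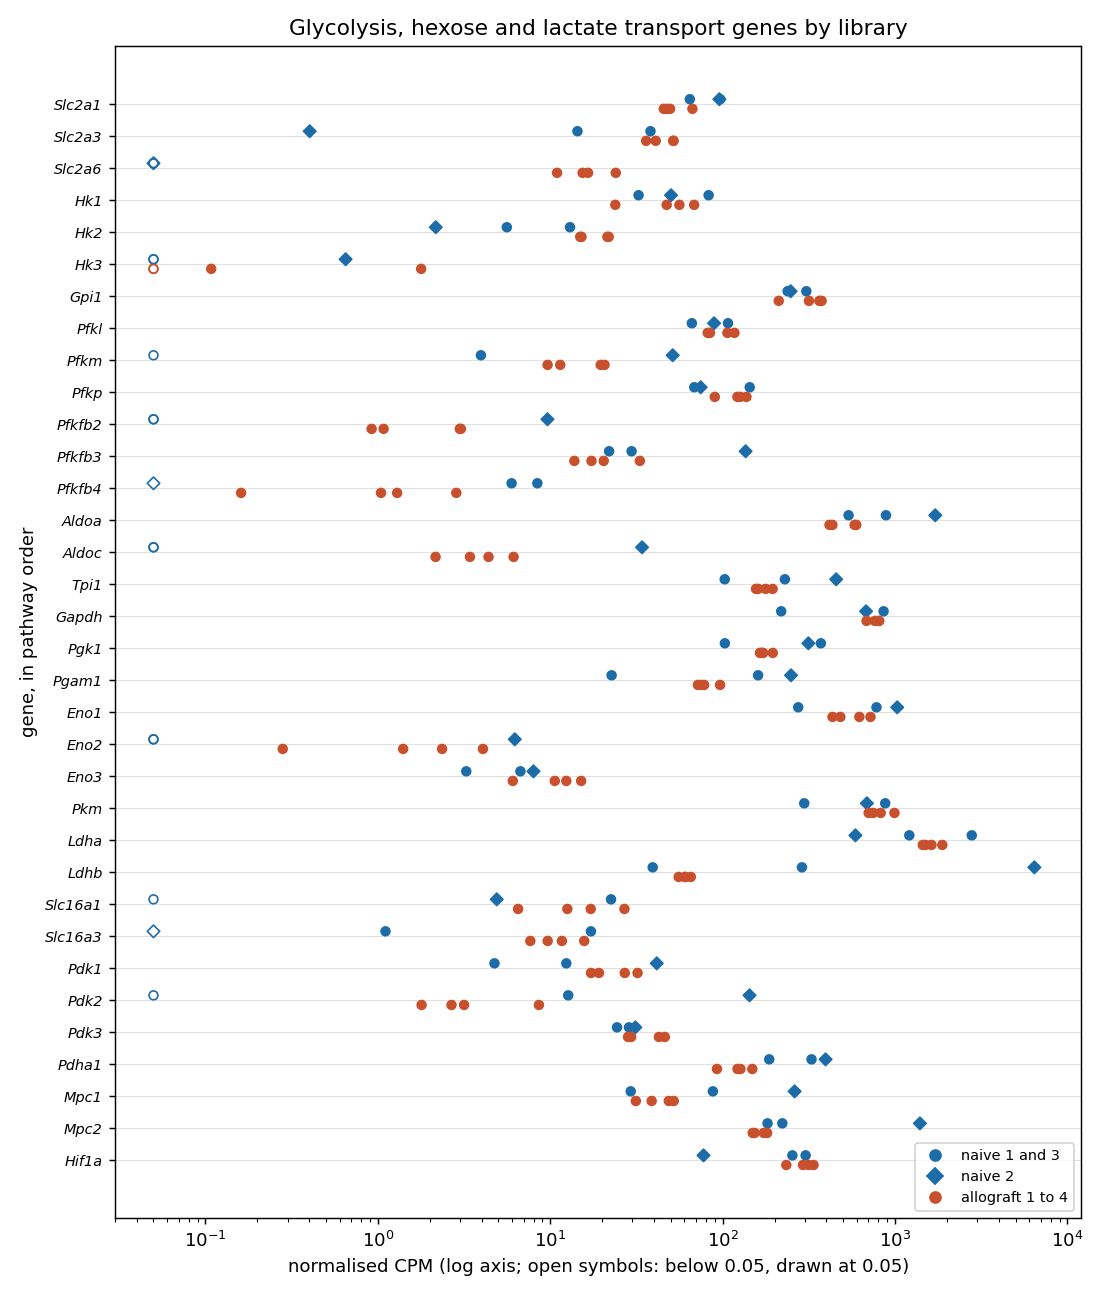
Normalised CPM (log axis) of the 34 genes in pathway order; each symbol is 1 library, blue for naive, with naive 2 as a diamond, and red for allograft, and open symbols lie below 0.05 CPM. The allograft symbols of most genes lie close together, whereas those of the naive libraries spread, as for Ldhb from 39.3 to 6428 CPM.

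The spread lay mainly among the naive libraries. Of the 33 genes tested, 15 had their highest value of the 7 libraries in naive 2 (45.5%, beside 28.3% of all genes) and 13 had their lowest in naive 3 (39.4%, beside 26% of all genes). Over the 24 members detected in every library, the median ratio of the highest to the lowest library was 3.83 in the naive and 1.45 in the allograft group. It was 2.27 for naive 1 and 3 alone. Over all 10495 genes detected throughout, these ratios were 4.13, 1.63 and 2.13.

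Only 4 members had groups that did not overlap. Slc2a6 and Hk2 were higher in all 4 allograft libraries than in any naive library (6.06% of the 33 members, beside 10.5% of all genes tested). Pdha1 and Mpc2 were lower in all 4 (6.06% of the members, beside 3.19% of all genes). Without naive 2 there were 7 higher members (Slc2a6, Hk2, Pfkm, Pfkfb2, Aldoc, Eno2 and Pdk1) and 3 lower ones (Pfkfb4, Pdha1 and Mpc2), beside 20.8% and 7.31% of all genes.

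The promoters of Slc2a6, Hk2 and Pdha1 are shown because these genes separated the groups under each of the 3 scalings compared, which Mpc2 did not, and those of Ldha and Ldhb because this isoform pair separated the libraries. They are the 250 bases before the start site from RefSeq (build GRCm38.p6), written 5′ to 3′ on the gene's own strand. Capitals mark the core ACGTG or GCGTG on either strand (CACGT and CACGC on the other strand), the letters at the centre of hypoxia response elements. The palindrome CACGTG holds ACGTG on both strands.
Ldha, chr7:46845554-46845803, plus strand: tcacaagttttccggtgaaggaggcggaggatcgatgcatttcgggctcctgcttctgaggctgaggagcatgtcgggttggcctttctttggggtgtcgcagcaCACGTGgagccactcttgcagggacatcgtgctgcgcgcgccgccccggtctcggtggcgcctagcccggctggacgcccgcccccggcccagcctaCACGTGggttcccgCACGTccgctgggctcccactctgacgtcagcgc
Ldhb, chr6:142507958-142508207, minus strand: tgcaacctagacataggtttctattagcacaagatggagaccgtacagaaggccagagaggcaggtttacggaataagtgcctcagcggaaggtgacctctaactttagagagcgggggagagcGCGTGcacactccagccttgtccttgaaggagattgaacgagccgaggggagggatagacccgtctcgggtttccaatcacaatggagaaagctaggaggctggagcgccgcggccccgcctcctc
Slc2a6, chr2:27027999-27028248, minus strand: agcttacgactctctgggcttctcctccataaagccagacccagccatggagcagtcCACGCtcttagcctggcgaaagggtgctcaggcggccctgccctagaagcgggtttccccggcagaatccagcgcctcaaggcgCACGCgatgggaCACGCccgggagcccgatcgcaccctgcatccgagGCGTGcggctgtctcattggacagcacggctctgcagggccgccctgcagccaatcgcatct
Hk2, chr6:82774455-82774704, minus strand: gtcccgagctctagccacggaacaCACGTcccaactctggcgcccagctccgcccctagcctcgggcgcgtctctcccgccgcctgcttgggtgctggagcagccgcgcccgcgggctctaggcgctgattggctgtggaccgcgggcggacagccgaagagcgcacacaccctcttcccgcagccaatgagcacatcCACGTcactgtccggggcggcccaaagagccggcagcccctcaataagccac
Pdha1, chrX:160138431-160138680, minus strand: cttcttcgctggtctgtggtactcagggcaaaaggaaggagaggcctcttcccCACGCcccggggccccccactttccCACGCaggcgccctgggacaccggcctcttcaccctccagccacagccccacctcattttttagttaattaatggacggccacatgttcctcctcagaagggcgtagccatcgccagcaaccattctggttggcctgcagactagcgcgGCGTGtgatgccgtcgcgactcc

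The Ldha stretch held 5 matches of the core, counting both strands, among them 2 copies of CACGTG. Its start site lies 4329 bases inside the Ldha gene as GENCODE draws it. Slc2a6 held 4 matches, all of GCGTG, Pdha1 held 3, Hk2 held 2 and Ldhb held 1. Of the 33 members with an entry in this table, 27 held a match in the entry nearest the gene's start (81.8%). Over all 50 member entries the share was 80%, beside 53.9% of the 13404 entries of genes tested and 38.6% of all 32851 entries. Median GC content was 61.6%, 59.2% and 52.4% in the same order. A match describes the letters in these windows and is not a binding site.

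Among the hexose transporters, Slc2a6, which encodes the lysosomal transporter GLUT6 (chromosome 2, 27021363 to 27027998 in GRCm38), had no count in naive 1, 2 or 3. It had 713, 576, 1043 and 336 counts in allografts 1 to 4, or 15.4, 16.6, 23.996 and 11.0 CPM. Every allograft library was therefore above every naive library, and the allograft mean of 16.7 CPM was at least 180.0-fold higher than a floor of 3 counts in a naive library. The edgeR adjusted p was 0.144 with all libraries, 0.0251 without naive 2, and lay between 2.5e-16 (DESeq2) and 1.00 over the alternatives, of which 3 of 15 called it. The pattern of at most 3 counts in each naive library and more in each allograft was held by 386 genes, 2.27% of those tested. The 10 myeloid markers, set beside it because macrophages express Slc2a6, summed to 2.32, 395 and 447 CPM in naive 1 to 3 and to 188 to 303 CPM in the allografts. Of the 10, 9, 1 and 7 were at 0 in naive 1 to 3 and 1 to 2 in the allografts. Lyz2, a lysozyme gene, made up most of the sum, at 2.32, 258 and 426 CPM in naive 1 to 3 and 116 to 181 CPM in the allografts. Cd68 stood at 0, 20.9 and 0 CPM in naive 1 to 3 and at 11.0 to 26.4 CPM in the allografts. S100a8 and S100a9, calprotectin genes of neutrophils and monocytes, were higher in every allograft, at 21.8 to 43.6 and 8.63 to 15.4 CPM, than in naive 2, at 9.57 and 3.75 CPM, and were at 0 in naive 1 and 3. Within the allografts both were highest in allograft 1, whereas Slc2a6 was highest in allograft 3. Csf1r, Adgre1 and C1qa of the same list were highest in naive 2, at 36.9, 9.17 and 18.5 CPM. They reached at most 2.64, 2.87 and 3.82 CPM in the allografts. Cd14 and Fcgr1 were also highest in naive 2. Naive 2, in which 9 of the 10 myeloid markers were detected, had no Slc2a6 count. Its myeloid markers differed from those of the allografts, with more Csf1r, Adgre1 and C1qa and less S100a8 and S100a9 than any of them. The part of myeloid transcripts in the Slc2a6 values was not tested.

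Slc2a1 encodes GLUT1, the basal glucose transporter of most cells. Its values were 64.5, 95.7 and 96.8 CPM in naive 1 to 3 and 49.6, 45.6, 47.6 and 66.8 CPM in allografts 1 to 4. Allograft 4 lay just above naive 1, and the other 3 allograft libraries lay below all naive ones. The fitted log2 fold change was -0.71 (SE 0.30, adjusted p = 0.481), and -0.64 (SE 0.29, adjusted p = 0.267) without naive 2. Slc2a3, which encodes the high-affinity transporter GLUT3, stood at 14.4, 0.403 and 38.1 CPM in the naive libraries and at 51.7, 40.9, 51.9 and 36.0 CPM in the allografts. Naive 3 lay within the allograft range and naive 2 was nearly devoid of it. The fitted value of 1.35 (SE 1.10, adjusted p = 0.778) was 0.76 (SE 0.46, adjusted p = 0.389) without naive 2.

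Of the hexokinases, which trap glucose as its phosphate, Hk2, the inducible hexokinase bound to mitochondria, stood at 5.60, 2.17 and 13.0 CPM in naive 1 to 3. The allografts stood at 14.9, 21.8, 15.2 and 21.5 CPM, so that the groups did not overlap, though naive 3 and allograft 1 were close. Its log2 fold change was 1.40 (SE 0.72, adjusted p = 0.598), and 0.96 (SE 0.53, adjusted p = 0.344) without naive 2. Hk1, the constitutive form, spanned 32.5 to 83.0 CPM in naive and 23.8 to 68.4 CPM in allograft libraries, with a log2 fold change of -0.18 (SE 0.48), or -0.26 without naive 2. Its reads may include those of the antisense gene Hk1os, which had 614 counts to its own 15532. Hk3, a hexokinase of myeloid cells, was at or under 1.78 CPM in every library. Gpi1, which turns glucose 6-phosphate into fructose 6-phosphate, ranged from 238 to 306 CPM in naive and from 212 to 375 CPM in allograft libraries. Its groups overlapped throughout, with a log2 fold change of 0.26 (SE 0.32), or 0.20 without naive 2.

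Phosphofructokinase commits the sugar to glycolysis. Pfkl, the liver-type subunit, stood at 66.3 to 107 CPM in naive and 81.9 to 117 CPM in allograft libraries. Pfkp, the platelet-type subunit, stood at 68.5, 74.6 and 144 CPM in naive 1 to 3 and at 90.04 to 137 CPM in the allografts. Both had overlapping groups, with log2 fold changes of 0.15 (SE 0.30) and 0.32 (SE 0.36), which were 0.14 and 0.15 without naive 2. Pfkm, the muscle-type subunit, stood at 3.96, 51.3 and 0 CPM in naive 1 to 3, and at 11.4, 20.7, 19.6 and 9.65 CPM in the allografts. Naive 2 alone lay above the allografts, and the other naive libraries lay below all of them. Its log2 fold change was accordingly -0.26 (SE 1.70) with naive 2 and 2.92 (SE 1.87, adjusted p = 0.424) without it. Pfkm and Pfkp share exon sequence with Senp1 and Pitrm1 on the opposite strand, and the use of strand in the counting is not given in the sources used here.

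The Pfkfb enzymes make and remove fructose 2,6-bisphosphate, the activator of phosphofructokinase. Pfkfb3, the form with the strongest kinase activity, stood at 29.6, 136 and 22.0 CPM in the naive libraries and at 13.8, 33.1, 20.4 and 17.4 CPM in the allografts. Only naive 2 lay outside the allograft range, and the log2 fold change of -1.56 (SE 0.69, adjusted p = 0.510) was -0.31 (SE 0.46, adjusted p = 0.782) without it. Pfkfb2 was present at 9.64 CPM in naive 2, at or under 0.0452 CPM in naive 1 and 3, and at 0.921 to 3.03 CPM in the allografts. The log2 fold change of Pfkfb2 was -0.68 (SE 2.02). Without naive 2 its allograft mean was at least 29.6-fold above a floor of 3 counts in a naive library (edgeR adjusted p = 0.114). It shares exons with Yod1 on the opposite strand, whose 6525 counts exceeded its own 618. Pfkfb4 stood at 8.42, 0 and 5.97 CPM in naive 1 to 3 and at 0.161 to 2.85 CPM in the allografts. Naive 1 and 3 were above every allograft library, and naive 2 was at 0; the log2 fold change was -1.84 (SE 1.78), and -2.44 (SE 1.05, adjusted p = 0.254) without naive 2.

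The aldolases split fructose 1,6-bisphosphate. Aldoa, the muscle-type aldolase that most cells use, stood at 538, 1711 and 886 CPM in naive 1 to 3 and at 596, 433, 582 and 417 CPM in the allografts. Naive 1 lay within the allograft range, and naive 3 and naive 2 lay above it. The fitted value was -1.04 (SE 0.45, adjusted p = 0.492), and -0.51 (SE 0.28, adjusted p = 0.344) without naive 2. Aldoc, the brain-type aldolase, was at 0 in naive 1 and 3, at 34.1 CPM in naive 2, and at 4.39, 3.42, 2.16 and 6.13 CPM in the allografts. With naive 2 its log2 fold change was -1.50 (SE 2.28, adjusted p = 0.910). Without naive 2 Aldoc was called higher (edgeR adjusted p = 0.0433, range over the alternatives 0.0433 to 1.00), at least 59.3-fold above a floor of 3 counts in a naive library. The same pattern, at most 3 counts in naive 1 and 3 and more in every allograft, was held by 7.54% of the genes tested without naive 2. Tpi1, the isomerase of the triose phosphates, ranged from 103 to 455 CPM in naive and from 156 to 195 CPM in allograft libraries, and its log2 fold change of -0.61 (SE 0.48) was 0.03 (SE 0.34) without naive 2.

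In the steps from triose phosphate to pyruvate, Gapdh, which oxidises glyceraldehyde 3-phosphate, stood at 858, 679 and 219 CPM in naive 1 to 3 and at 802, 764, 810.0 and 683 CPM in the allografts. Naive 3 was far below the other 6 libraries, which lay within a narrow range. Pkm, whose pyruvate kinase makes pyruvate, had the same order of naive libraries at 877, 687 and 297 CPM, beside 703 to 992 CPM in the allografts. Log2 fold changes were 0.39 (SE 0.48, edgeR adjusted p = 0.874) for Gapdh and 0.40 (SE 0.43, adjusted p = 0.851) for Pkm. They were 0.48 and 0.45 without naive 2.

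Pgk1, the first ATP-yielding kinase of the pathway, stood at 371, 314 and 103 CPM in naive 1 to 3, beside 165 to 195 CPM in the allografts. Pgam1, the mutase, stood at 161, 249 and 22.7 CPM, beside 71.9 to 96.7 CPM. Eno1, the ubiquitous enolase, stood at 780.4, 1029.5 and 274 CPM, beside 434 to 720.4 CPM. In all 3 genes naive 1 and 2 lay above, and naive 3 below, the allograft range. The group difference was therefore smaller than the spread between naive libraries, with log2 fold changes of -0.59 (SE 0.44), -0.84 (SE 0.67) and -0.30 (SE 0.49), or -0.46, -0.22 and 0.07 without naive 2. Eno2, the neuronal enolase, was at 0 in naive 1 and 3, at 6.23 CPM in naive 2 and at 0.281 to 4.07 CPM in the allografts. The log2 fold change of Eno2 was -0.03 (SE 2.25). Without naive 2 its allograft mean was at least 29.9-fold above a floor of 3 counts in a naive library (edgeR adjusted p = 0.0829). Eno3, the muscle enolase, ranged from 3.26 to 7.99 CPM in naive and from 6.07 to 15.1 CPM in allograft libraries, with overlapping groups and a log2 fold change of 0.88 (SE 0.70), or 1.13 (SE 0.67) without naive 2.

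Several of these genes have near-identical copies elsewhere in the genome, so that their counts are uncertain. Of the 50-base windows of its transcripts, 82.5% were shared with other genes for Gapdh, 72.2% for Eno1, 68.0% for Pgk1, 41.5% for Pgam1 and 34.4% for Pkm. Close copies held 12.4% of the summed counts for Gapdh, 22.1% for Eno1, 14.0% for Pgk1 and 11.6% for Pgam1. Mpc1, with 21.5%, was the other gene with more than a few percent. Summing each member with its close copies, an alternative chosen after seeing the data, left no member called (beside 0.0295% of genes higher and 0.00589% lower) and the median log2 fold change of the members at -0.17.

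**Figure D2:**
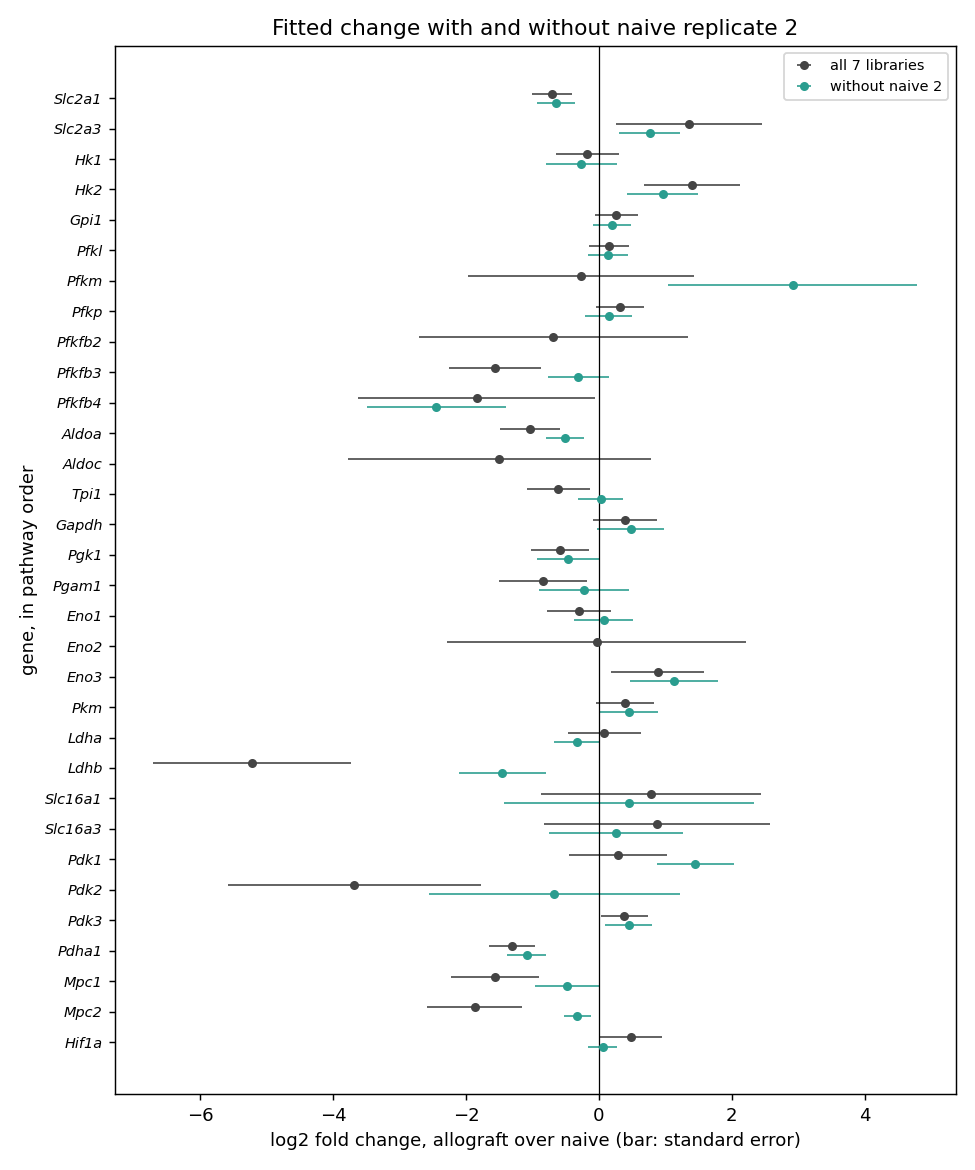
Fitted log2 fold change (allograft over naive) of the tested genes in pathway order, with the standard error as a bar, from all 7 libraries (grey) and without naive 2 (green); Slc2a6 and other values that rest on a group at the floor are left out. Ldhb moves from -5.22 to -1.45 and Pfkm from -0.26 to 2.92, whereas Pdha1 stays near -1.31 and -1.09.

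The lactate dehydrogenase subunits interconvert pyruvate and lactate. Ldha, the muscle-type subunit that favours lactate formation, stood at 2785, 589 and 1209.9 CPM in naive 1 to 3 and at 1879.6, 1502, 1626 and 1448 CPM in allografts 1 to 4. Naive 1 was above, and naive 2 and 3 below, the allograft range. Its log2 fold change was 0.08 (SE 0.55, adjusted p = 0.989), and -0.33 (SE 0.34, adjusted p = 0.658) without naive 2. Ldhb, the heart-type subunit, which kidney also makes in abundance, stood at 39.3, 6428 and 288 CPM in the naive libraries and at 65.4, 55.6, 60.9 and 60.3 CPM in the allografts. Naive 2 held far more Ldhb RNA than any other library, naive 3 also lay above the allografts, and naive 1 lay below them. The log2 fold change of Ldhb was -5.22 (SE 1.48, edgeR adjusted p = 0.264), and -1.45 (SE 0.65, adjusted p = 0.269) without naive 2. The order of the naive libraries in Ldhb was that of the kidney tubule marker sums of 66.1, 16391 and 333 CPM, over 3 libraries. The erythroid sums, at 734, 4234 and 765 CPM, and the fibroblast sums, at 0.0528, 199 and 112 CPM, had the same order. The part of any of these transcripts in Ldhb was not tested.

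Fbp1, a gluconeogenic phosphatase, followed the same order of naive libraries. It was named, with G6pc, after its values were seen, and stood at 0, 348 and 53.6 CPM in naive 1 to 3 and at 0 in all allografts. G6pc, the glucose 6-phosphatase of liver and kidney, was seen in naive 2 only, at 142 CPM.

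**Figure D3:**
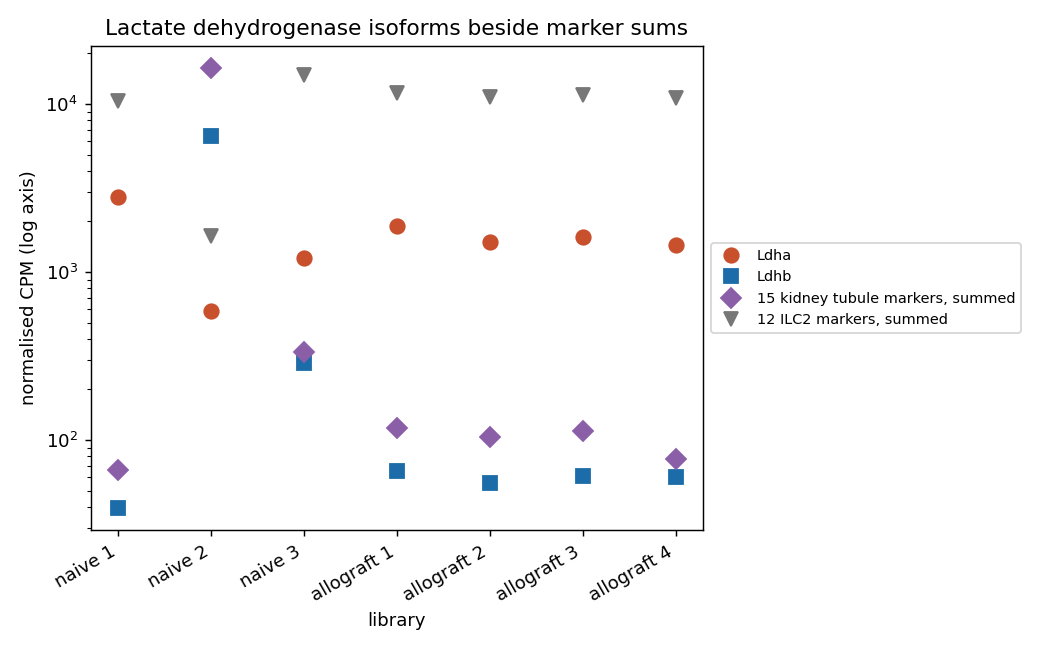
Normalised CPM (log axis) of Ldha and Ldhb and of the summed kidney tubule and ILC2 markers in each library. In naive 2 Ldhb (6428 CPM) stands above Ldha (589 CPM) and the ILC2 marker sum is at its lowest, while the allografts keep Ldha between 1448 and 1879.6 CPM and Ldhb between 55.6 and 65.4 CPM.

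Lactate leaves the cell through monocarboxylate transporters. Slc16a1 (MCT1), the widespread monocarboxylate transporter, stood at 22.5, 4.90 and 0 CPM in naive 1 to 3 and at 17.2, 12.6, 6.51 and 26.9 CPM in the allografts. Slc16a3 (MCT4), the exporter of highly glycolytic cells, stood at 17.2, 0 and 1.11 CPM and at 15.8, 9.67, 11.7 and 7.66 CPM. For both, naive 1 lay within or just above the allograft range and the other naive libraries lay below it. Log2 fold changes were 0.79 (SE 1.65, adjusted p = 0.942) and 0.87 (SE 1.70, adjusted p = 0.936), and 0.45 and 0.26 without naive 2.

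Pdha1 encodes the catalytic E1α subunit of pyruvate dehydrogenase and is X-linked (chromosome X, 160122209 to 160138413 in GRCm38). It stood at 186, 395 and 328 CPM in naive 1 to 3 and at 149, 92.7, 127 and 122 CPM in allografts 1 to 4. Every allograft library lay below every naive library, with means of 303 ± 107 (SD, n = 3) and 123 ± 23.0 CPM (SD, n = 4). The log2 fold change was -1.31 (SE 0.35, unadjusted p = 0.00645, adjusted p = 0.229 by edgeR), and -1.09 (SE 0.30, adjusted p = 0.113) without naive 2. DESeq2 called it lower at an adjusted p of 0.0131, and over all alternatives the adjusted p ran from 0.0131 to 1.00 and the log2 fold change from -1.55 to -1.09.

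The kinases Pdk1, Pdk2 and Pdk3 phosphorylate and switch off this subunit. Pdk1, a target of hypoxia-inducible factor, stood at 12.4, 41.5 and 4.75 CPM in naive 1 to 3 and at 17.2, 32.1, 27.1 and 19.2 CPM in the allografts. Naive 1 and 3 lay below all allografts and naive 2 above them, and the log2 fold change of 0.29 (SE 0.73) was 1.45 (SE 0.58, adjusted p = 0.240) without naive 2. Pdk2 stood at 12.7, 143 and 0 CPM in the naive libraries and at 1.79 to 8.60 CPM in the allografts, so that naive 2 was far above the other 6 libraries; its log2 fold change of -3.68 (SE 1.90) was -0.67 (SE 1.89) without naive 2. Pdk3 was the steadiest kinase, at 24.4 to 31.2 CPM in naive and 28.3 to 46.2 CPM in allograft libraries, with a log2 fold change of 0.39 (SE 0.36, edgeR adjusted p = 0.814), or 0.45 without naive 2.

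Mpc1 and Mpc2 form the carrier that takes pyruvate into mitochondria. Mpc2 stood at 222, 1394 and 182 CPM in naive 1 to 3 and at 181, 153, 173 and 149 CPM in allografts 1 to 4. The groups did not overlap on this scale, but naive 3 and allograft 1 were nearly equal, and on CPM of the deposited total the groups overlapped. Its log2 fold change was -1.87 (SE 0.71, adjusted p = 0.400), and -0.32 (SE 0.21, adjusted p = 0.423) without naive 2. Mpc1, the partner subunit, stood at 87.8, 261 and 29.3 CPM in naive 1 to 3 and at 31.4 to 52.0 CPM in the allografts. Naive 3 lay below all allografts and naive 1 and 2 above them, and its fitted value of -1.56 (SE 0.66, adjusted p = 0.476) was -0.48 (SE 0.48) without naive 2.

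Hif1a, the oxygen-regulated subunit of hypoxia-inducible factor 1, stood at 254, 77.5 and 303 CPM in naive 1 to 3 and at 234, 337, 293 and 316 CPM in the allografts. Naive 1 and 3 lay within the allograft range and naive 2 lay far below it, and the log2 fold change of 0.48 (SE 0.48, adjusted p = 0.830) was 0.06 (SE 0.22, adjusted p = 0.925) without it. Its activity is controlled mainly through protein stability, which these data do not measure.

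Levels of different genes were compared per length, as FPKM (fragments scaled to transcript length and library depth) in the allografts, where the spread was small. Ldha was highest at 448 ± 49.6 FPKM (SD, n = 4). Gapdh at 170.1 ± 13.2, Aldoa at 160.2 ± 29.4 and Pkm at 149.9 ± 22.2 FPKM followed and lay within one another's spread. Then came Eno1 at 96.3 ± 21.7, Pgk1 at 71.8 ± 4.88 and Tpi1 at 57.4 ± 5.19 FPKM. Pdha1, at 30.1 ± 5.35 FPKM, was close to Ldhb at 35.5 ± 1.97. The transporters and hexokinases were scarcer, with Slc2a1 at 13.7 ± 2.47, Hk1 at 5.27 ± 2.05, Slc2a6 at 4.78 ± 1.58 and Hk2 at 2.82 ± 0.5996 FPKM.

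Isoforms were compared within each library as a share of the family's summed FPKM, which does not depend on library scaling. The hexose transporters had the smallest p of the 9 shares compared. Slc2a1 made up 90.3%, 99.8% and 84.0% of the 3 transporters in naive 1 to 3 and 54.3%, 54.7%, 48.2% and 69.5% in allografts 1 to 4. The groups did not overlap, and the difference of the means was -34.7 percentage points (exact two-sided permutation p = 0.0286, the smallest the 35 splits allow, adjusted p = 0.257 over the 9 shares). In the allografts Slc2a6 took 12.4% to 26.5% and Slc2a3 18.1% to 27.3%, while in the naive libraries Slc2a6 was at 0 and Slc2a3 took 0.194% to 16.0%. Without naive 2 the difference was -30.5 percentage points, where the 15 remaining splits allow no p under 0.0667.

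Pdk1 made up 9.47%, 8.46% and 5.98% of the 3 kinases in naive 1 to 3 and 9.61%, 24.8%, 16.7% and 17.1% in the allografts. The groups did not overlap, by the small margin between naive 1 and allograft 1, and the exact permutation p was 0.0571 (adjusted p = 0.257). Pdk3 was the main kinase in every library except naive 2, where Pdk2 took 72.1%.

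Ldha made up 97.1%, 4.16% and 66.5% of the dehydrogenase pair in naive 1 to 3 and 93.2%, 92.8%, 92.7% and 91.9% in the allografts. The allografts were nearly equal, and naive 1 was above them, so the groups overlapped (exact permutation p = 0.143, adjusted p = 0.429). Per length, Ldha was 33.6-fold more abundant than Ldhb in naive 1, 1.99-fold in naive 3 and 11.4-fold to 13.6-fold in the allografts. In naive 2, Ldhb was 23.0-fold more abundant than Ldha.

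Among the hexokinases, Hk2 took 8.78%, 5.59% and 36.4% in naive 1 to 3 and 27.5%, 30.1%, 31.4% and 56.3% in the allografts. Naive 3 lay inside the allograft range, and the exact permutation p was 0.229 (adjusted p = 0.463). Hk1 was the main hexokinase in all libraries but allograft 4. Pfkl was the leading phosphofructokinase subunit in the allografts, at 47.3% to 55.2%, and in naive 1, whereas Pfkm led in naive 2 (44.9%) and Pfkp in naive 3 (52.0%). The monocarboxylate transporters varied widely, with Slc16a3 at 38.9%, 0% and 100% in naive 1 to 3 and at 19.1% to 59.8% in the allografts.

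For the phosphofructokinases, monocarboxylate transporters, aldolases, enolases and bifunctional Pfkfb enzymes the exact permutation p lay between 0.257 and 0.886, with adjusted values from 0.463 to 0.886. Aldoa took at least 98.3% of the aldolase pair and Eno1 at least 92.2% of the enolases in every library. Pfkfb3 took 69.4% to 93.2% of the 3 bifunctional enzymes in naive and 71.3% to 91.9% in allograft libraries.

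**Figure D4:**
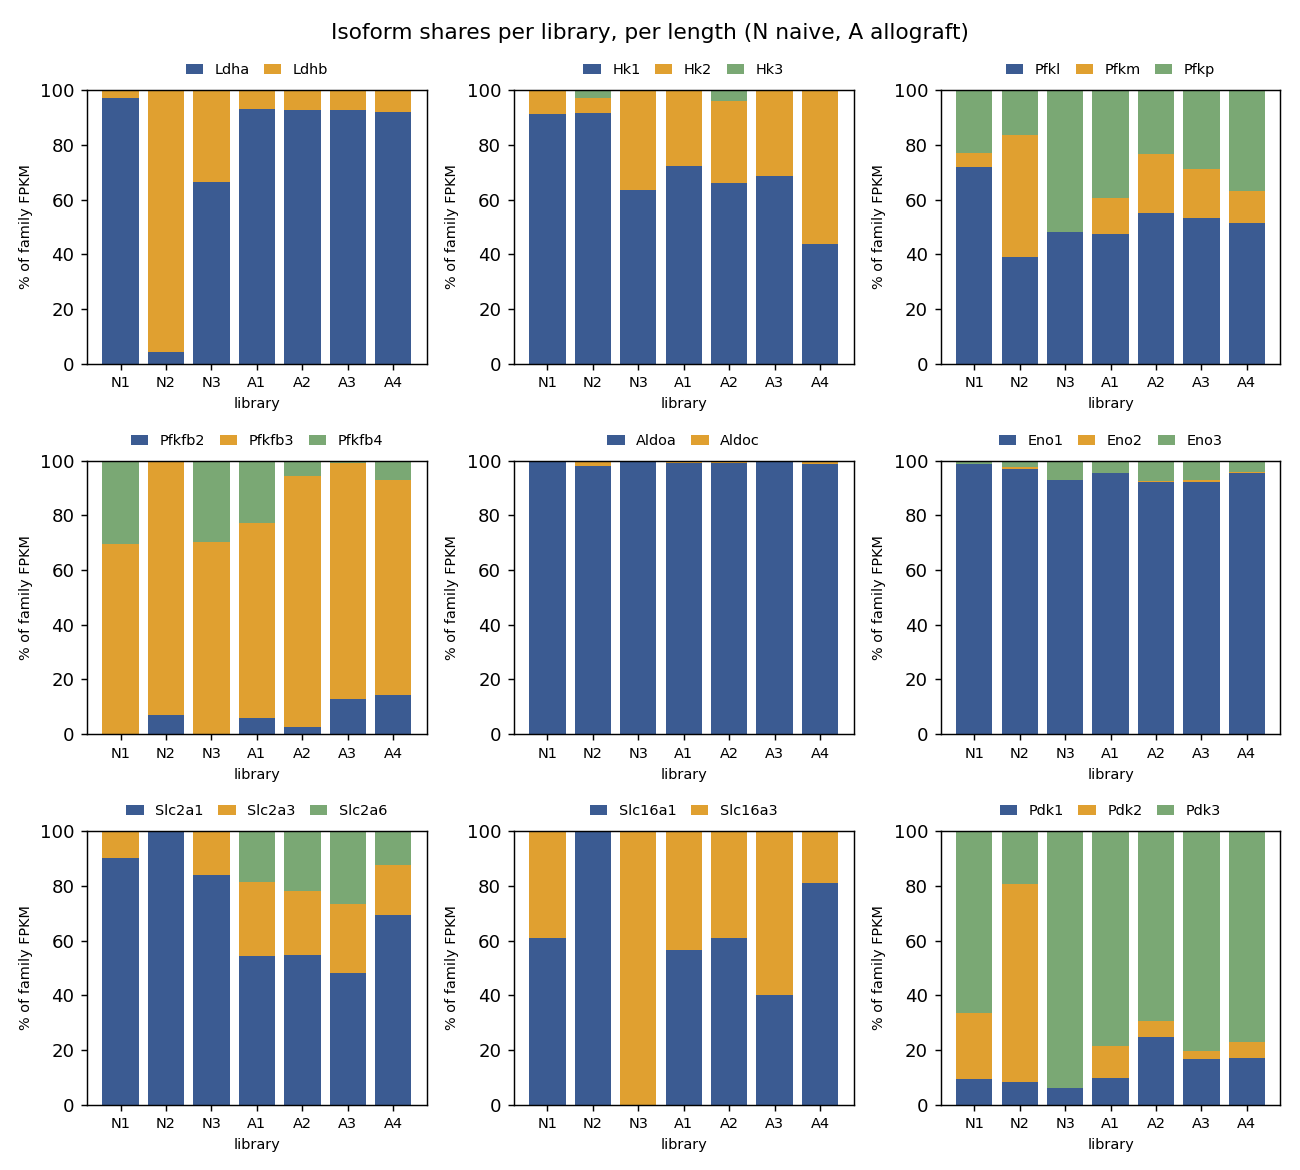
Share of each isoform in the summed FPKM of the listed members of its family (percent, stacked bars) in naive libraries 1 to 3 (N1 to N3) and allografts 1 to 4 (A1 to A4). Slc2a1 takes 84.0% or more in each naive library and 69.5% or less in each allograft, and Ldha takes 4.16% in naive 2 against 91.9% to 93.2% in the allografts.

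Genes around the pathway were read from lists that held no member, and none of the 70 tested was called by edgeR with all libraries. At an unadjusted p of 0.05, 3 were higher and 6 lower, beside 6.41% and 3.86% of all genes. DESeq2 called 2 higher (Pfkfb1 and Ddit4) and 4 lower, among them Ldhd, Pgm1 and Mtor, beside 3.72% and 2.23% of all genes. Of 11 other glycolytic isoforms tested, Ldhd, a D-lactate dehydrogenase of mitochondria, stood at 77.0, 106 and 63.5 CPM in naive 1 to 3 and at 19.0, 7.74, 25.2 and 20.9 CPM in the allografts. All allograft libraries lay below all naive ones, and the fit gave -2.17 (SE 0.46, adjusted p = 0.144), and -1.97 (SE 0.47, adjusted p = 0.0818) without naive 2. Pfkfb1, the liver form, had no count in the naive libraries and stood at 1.21 to 3.97 CPM in the allografts (adjusted p = 0.144). Without naive 2 it was the 1 gene of these lists that was called (edgeR adjusted p = 0.0461, range over the alternatives 4.3e-07 to 1.00). In the list of the pyruvate dehydrogenase complex, the E3 subunit gene Dld stood at 77.4 to 268 CPM in naive and 50.5 to 76.6 CPM in allograft libraries, without overlap (log2 fold change -1.21, SE 0.50, adjusted p = 0.461). Without naive 2 its log2 fold change was -0.38 (SE 0.26, adjusted p = 0.458). Dlat, the E2 subunit gene, and Pdk4, a further kinase, were highest in naive 2, at 138 and 66.9 CPM, and had overlapping groups.

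In the pentose phosphate pathway, which branches from glucose 6-phosphate, Tkt (transketolase) stood at 118, 67.0 and 18.5 CPM in naive 1 to 3 and at 159, 161, 159 and 179 CPM in the allografts. Pgls, the lactonase, stood at 58.2, 58.5 and 43.1 CPM and at 82.2, 83.2, 116 and 108 CPM. Both genes were higher in every allograft library, with log2 fold changes of 1.28 (SE 0.57, adjusted p = 0.517) and 0.87 (SE 0.30, adjusted p = 0.341), which were 1.24 and 0.92 without naive 2. Rpe, an epimerase of the pathway, had overlapping groups (-0.64, SE 0.46, or -0.85 without naive 2). Among genes of glycogen, Pgm1, a phosphoglucomutase, stood at 28.4 to 42.0 CPM in naive and 5.06 to 16.7 CPM in allograft libraries, without overlap (log2 fold change -1.59, SE 0.51, adjusted p = 0.341, or -1.60 without naive 2). Pygl, a glycogen phosphorylase, and Gbe1, the branching enzyme, also lay lower in every allograft than in any naive library, at 16.6 to 20.5 CPM against 24.3 to 53.4 CPM and at 6.50 to 9.77 CPM against 12.6 to 45.8 CPM.

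Among 18 other genes of the hypoxia-inducible factor pathway, Ddit4, an inhibitor of mTOR signalling, stood at 19.1, 2.79 and 6.40 CPM in naive 1 to 3 and at 45.9, 45.7, 26.6 and 54.7 CPM in the allografts. The groups did not overlap (log2 fold change 2.20, SE 0.71, adjusted p = 0.341, or 1.73 without naive 2). Epas1, which encodes hypoxia-inducible factor 2α, stood at 55.8 to 110.4 CPM in naive and 37.9 to 61.8 CPM in allograft libraries, and Car12, a carbonic anhydrase, at 304 CPM in naive 2 and at most 5.82 CPM elsewhere. Of a separate list of 11 other regulators of glycolysis, Mtor stood at 28.9 to 36.7 CPM in naive and 18.0 to 24.2 CPM in allograft libraries. Its log2 fold change was -0.60 (SE 0.35, edgeR adjusted p = 0.663), or -0.65 without naive 2. In the same list Akt1 had overlapping groups, and Ppargc1a stood at 129 CPM in naive 2 and at most 1.04 CPM elsewhere. The median log2 fold change of the 18 genes of the hypoxia-inducible factor pathway was -0.37, beside -0.01 over all genes tested. Without naive 2 these medians were -0.19 and 0.23. For the 11 other regulators the median was -0.40, and -0.03 without naive 2.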

How the data were processed

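RNA of sorted ILC2s was sequenced in 3 naive and 4 allograft libraries. The cDNA was amplified at full length without molecular identifiers, so the floors cover counting error only. SD and SE hold the spread between libraries. The authors deposited raw counts per gene and, for the same genes, FPKM. The submitters' processing notes name FastQC 0.11.5, STAR 2.5.3a, StringTie 1.3.1c, DESeq2 1.16.1 and mm10, with no role or order, and strand use is not given in the sources used here. Every column matched 1 sample by its library name. The authors' deposited FPKM equalled CPM per gene up to 1 factor per library (SD of the log2 ratio at most 0.00352 over 7340 genes).

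Counts were tested with edgeR 4.0.16 (R 4.3.3; quasi-likelihood, TMM, filterByExpr, no covariate) over all genes, with Benjamini-Hochberg adjustment at 0.05. SE is the log2 fold change over the root of F. P-values measure the spread between pooled libraries. Isoform shares were compared by exact two-sided permutation of the libraries. Alternatives were DESeq2 1.42.0, limma 3.58.1 (voom with sample weights), other scalings and filters, a replicate block and leaving out each library. The edgeR script was tested on simulated data in which both groups had the same spread. In the real data the coefficient of variation between libraries was 1.72 in the naive and 0.589 in the allograft group. The simulation therefore does not show how often a change would be found here. All 34 members are named and, of each neighbouring list, the genes called or otherwise the 3 with the smallest p; 1 such gene is not reported here. Members and lists were chosen with earlier results of these data known. Coordinates are of GRCm38 (GENCODE M21).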

Additional observations from a re-analysis of the deposited data

Results flagged for a closer look

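In 44 values of the 4 allograft libraries (members' CPM and isoform shares), 2 had a library farther from the rest than Dixon's criterion allows, where chance would give about 2.2. Hk3 stood at 1.78 CPM in allograft 2, against 0 to 0.108 CPM in the other allografts. The Hk2 share of the hexokinases was 56.3% in allograft 4, against 27.5% to 31.4% in the others.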

How the results depend on the processing

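Of 491 refitted values of the members, 456 kept their direction and side of the threshold, 4 passed it newly (Slc2a6 with DESeq2 and without naive 1 or 2, and Pdha1 with DESeq2) and 31 changed sign, among them Aldoc, called higher without naive 2. The changes of sign fell on 10 of the 33 tested members, and the other 23 had none. The cause was not tested. edgeR called 6 genes with all libraries, 560 without naive 2, 107 without naive 1, 7 without naive 3 and 0 without any 1 of the allografts (848 to 1074 at an unadjusted p under 0.05). Hk3 and the second Aldoa row, with 88 and 136 counts in all, were too low to test.

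DESeq2 called 1012 genes, 1 of them a member that was higher and 1 a member that was lower, and limma voom called 1. Leaving out 1 library at a time gave 0 to 560 genes called and 0 to 2 members called higher. Under the same omissions, 2 to 7 members lay wholly higher and 2 to 8 wholly lower (beside 11.6% to 20.8% and 3.78% to 9.55% of all genes), and on CPM of the deposited total 1 lay wholly lower (beside 2.15%). The median log2 fold change of all genes was -0.01, -0.20 with DESeq2 size factors and 0.66 with voom.

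No pairing of libraries by replicate number was seen, which does not show that none existed. Same-numbered libraries correlated at 0.017, -0.020 and 0.036 in their deviations from the group means, and other pairs at -0.087 to 0.076. Allograft 4 has no partner. With the replicate block, 0 genes were called by edgeR (252 at an unadjusted p under 0.05), the members' median log2 fold change was 0.36, and 5 members changed sign, to 0.14 for Hk1, 2.02 for Pfkm, 4.86 for Pfkfb2, 6.98 for Aldoc and 5.50 for Eno2. With voom, 4 changed sign, to 2.72 for Pfkm, 4.67 for Pfkfb2, 5.95 for Aldoc and 4.95 for Eno2. DESeq2 size factors and the DESeq2 test gave -0.037 and -0.037 for Pfkl, -0.036 and -0.036 for Ldha and -0.013 and -0.013 for Pdk1. Without the low-count filter Eno2 was at 0.013.

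Leaving out 1 library at a time gave log2 fold changes from -0.44 (without naive 3) to 0.26 (without naive 1) for Hk1, -0.0011 (without naive 3) to 0.34 for Pfkl, -0.82 to 2.92 for Pfkm, -1.24 to 6.33 for Pfkfb2, -2.05 to 10.41 for Aldoc, -0.97 to 0.026 for Tpi1, -0.67 to 0.072 for Eno1, -0.63 to 9.43 for Eno2, -0.33 to 0.85 for Ldha and -0.15 to 1.45 for Pdk1. Naive 2 gave the highest value for Pfkm, Pfkfb2, Aldoc, Tpi1, Eno1, Eno2 and Pdk1 when it was left out, and the lowest for Ldha. Differences in isoform share ran from -5.25 to 12.6 percentage points for Pfkp, -0.738 to 0.132 for Aldoa and -29.2 to 20.8 for Slc16a3. The Slc16a3 difference was also positive, at 0.104, as a log2 ratio to Slc16a1.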
